A study of Mus musculus with 20 samples.

Results

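Complement components and receptors were followed across all cell clusters of the spinal cord. The 9 genes, taken by symbol, were C1qa, C1qb, C1qc, C4b, C3, Cfb, C3ar1, C5ar1 and Serping1, out of 16003 genes in the single-cell count table. All 9 were found, and none was dropped for a low count.

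The study asked what microglia do in the repair of a contused cord, and it profiled cells by single-cell RNA-seq after microglia were depleted. The cells came from female C57BL/6J mice that the labels give as 8 to 10 weeks old. Mice ate control chow (vehicle) or chow with PLX5622, an inhibitor of the receptor Csf1r on which microglia depend for survival, at 1200 ppm by the labels. The diet began 2 weeks before surgery and went on to the end. The injured groups had a contusion at T9 and were taken at 7 or 28 days post-injury (dpi), and the sham groups had the laminectomy alone. There were 6 libraries: sham, 7 dpi and 28 dpi under vehicle and the same under PLX5622. Each pooled 1 cm of cord from 3 to 4 mice. Both sham libraries are labelled with 7 and 28 days together, so each is the only reference of its diet for both times. Csf1r is also made by other macrophages, so the diet is not a change in microglia alone. Blood was not washed out, and myelin and dead cells were removed before loading.

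Complement is a set of proteins that tag cells and debris and draw in phagocytes. The classical pathway starts when C1q, built from the products of C1qa, C1qb and C1qc, binds its target. Proteases then cleave C4 (here C4b) and C3, whose fragments coat the target, while Cfb builds the alternative pathway that amplifies C3 cleavage. C3ar1 and C5ar1 are receptors for the small fragments set free from C3 and C5, and Serping1 is the secreted inhibitor of the C1 proteases. In the central nervous system C1q is known as a product of microglia, and complement is known for its part in the removal of synapses.

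The genes of the C1q subunits are neighbours on chromosome 4 (GRCm38), all on the minus strand. C1qb lies at chr4:136880129-136886187, C1qc at chr4:136889804-136893065 and C1qa at chr4:136895917-136898803. The gaps between them are 3616 and 2851 bases, and the whole stretch spans 18675 bases. Promoter windows from 250 bases before to 50 bases after the start were matched in RefSeq (GRCm38.p6) for 5 of the 9 genes: C1qb, C1qc, C3, C3ar1 and C5ar1. Those of C1qb and C1qc are shown because both genes were read out together in every library, and that of C3 because its pattern across clusters was another. Capitals mark GAGGAA (a core bound by ETS factors) and TTNNGNAA (the form bound by C/EBP factors), each searched on both strands.

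C1qb, chr4:136886151-136886450, minus strand: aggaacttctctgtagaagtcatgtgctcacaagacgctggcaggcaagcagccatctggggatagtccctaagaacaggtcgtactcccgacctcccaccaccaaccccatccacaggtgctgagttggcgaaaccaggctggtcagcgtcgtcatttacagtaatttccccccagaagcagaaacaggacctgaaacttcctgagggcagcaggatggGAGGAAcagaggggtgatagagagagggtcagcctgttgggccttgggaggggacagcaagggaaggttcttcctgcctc
C1qc, chr4:136892865-136893164, minus strand: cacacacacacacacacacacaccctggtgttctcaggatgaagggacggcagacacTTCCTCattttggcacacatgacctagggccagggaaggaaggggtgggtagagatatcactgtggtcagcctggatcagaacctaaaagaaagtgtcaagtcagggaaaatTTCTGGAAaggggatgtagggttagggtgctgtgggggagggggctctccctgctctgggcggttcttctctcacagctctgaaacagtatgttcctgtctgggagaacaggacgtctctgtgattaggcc
C3, chr17:57228087-57228386, minus strand: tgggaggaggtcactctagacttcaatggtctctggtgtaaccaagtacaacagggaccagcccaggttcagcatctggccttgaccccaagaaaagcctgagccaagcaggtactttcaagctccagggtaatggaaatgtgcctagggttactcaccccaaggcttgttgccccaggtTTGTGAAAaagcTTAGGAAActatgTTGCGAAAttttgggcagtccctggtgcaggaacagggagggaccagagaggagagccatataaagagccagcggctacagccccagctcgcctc

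The C1qb window held GAGGAA at -30 from the start. The C1qc window held its reverse complement at -193 and a TTNNGNAA match at -81. The C3 window held TTNNGNAA at -70, -58 and -45 and no GAGGAA. C5ar1 had a TTNNGNAA match at -157, and C3ar1 had neither motif. The motifs did not overlap in these windows, and they are common, since 28.28% of 32851 windows held GAGGAA and 40.68% held TTNNGNAA. A match in letters is a description and not a binding site.

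All values below are counts of unique molecular identifiers (UMIs), which stand for single captured transcripts, summed over the cells of a cluster in a library and divided by that cluster's total to give CPM, the counts scaled to 1e6 of the total. The table held 21016 cells, with 492 to 9846 cells and 2606149 to 35694246 UMIs per library. The authors' 14 clusters were named by cell type markers, so that "microglia" stands for microglia-like cells, and MDM for cells like monocyte-derived macrophages. The cluster called mixed mononuclear held markers of dendritic cells, border macrophages and monocytes, another held markers of oligodendrocytes and neurons, and another those of fibroblasts and pericytes. P2ry12, a microglia gene, was at 2410 CPM in microglia of the sham vehicle library, 351 at 7 dpi and 510 at 28 dpi. The MDM cluster of the sham vehicle library, 185 cells, held P2ry12 at 412 CPM against 41.8 and 66.4 at 7 and 28 dpi. Pairs of libraries shared 0 to 21 cell barcodes. As each condition is 1 library, there is no replicate check and no test, and the 95% intervals (exact Poisson for a CPM, exact conditional binomial for a log2 ratio) cover counting error only. A ratio was formed where both libraries held at least 20 cells of a cluster and 20 UMIs of the gene together, and it was called where it reached 1 in either direction on the log2 scale. Both injury ratios share the sham vehicle library, and the vehicle libraries at 7 and 28 dpi also enter the diet ratios, so the comparisons are not independent.

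The genes fell into groups by where their UMIs lay. Microglia and MDMs held most UMIs of the C1q subunits and of C3ar1. Of 534021 UMIs of C1qa in all libraries, 37.9% were in microglia and 50.2% in MDMs, and of 24552 of C3ar1, 22.7% and 63.9%. C5ar1, with 5711 UMIs, was in the same clusters (22.3% and 52.5%) and also in neutrophils (6.57%), proliferating cells (7.55%) and the mixed mononuclear cluster (7.46%). C4b and C3 were spread more widely. C4b had 1871 UMIs, of which the mixed mononuclear cluster held 38.0%, the oligodendrocyte and neuron marker cluster 15.4% and astrocytes 10.6%. C3 had 2630 UMIs, with 30.2% in MDMs, 20.5% in microglia and 12.9% in neutrophils. Serping1 was a gene of the connective tissue clusters: of 1564 UMIs, 44.6% were in the fibroblast and pericyte marker cluster and 45.5% in leptomeningeal cells. Cfb had 207 UMIs in all.

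**Figure D1:**
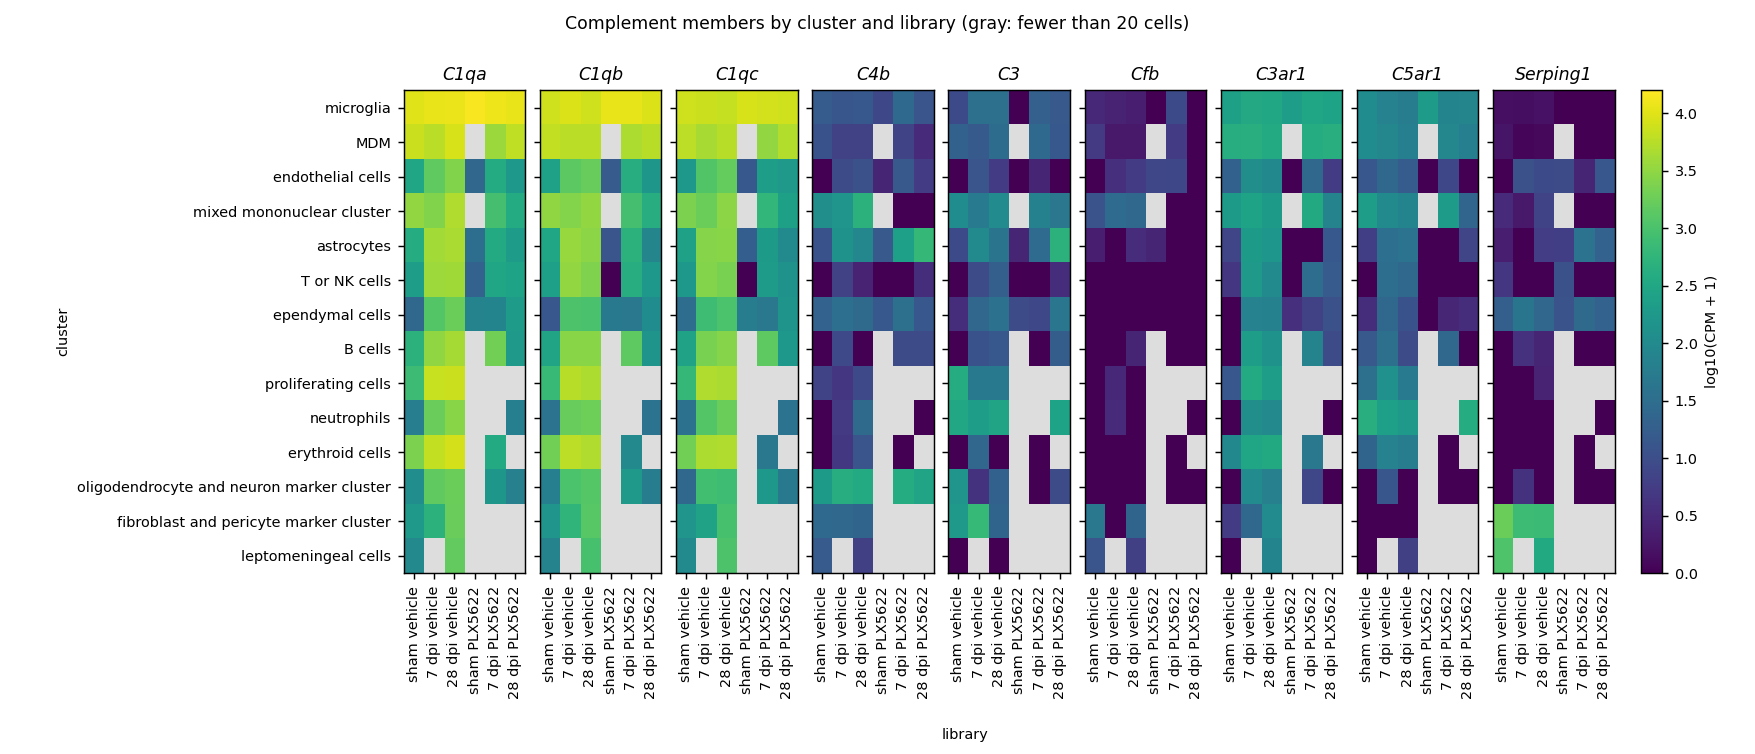
Level of each of the 9 genes, as log10(CPM + 1) on the color scale, in 14 clusters (rows) and 6 libraries (columns of each panel); gray marks sums of fewer than 20 cells. The C1q panels are brightest in microglia and MDMs and brighter in the other clusters of the vehicle libraries at 7 and 28 dpi than in the PLX5622 libraries, while Serping1 is bright in the last 2 rows.

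C1q transcripts were abundant in microglia of every library. C1qa was at 9747 CPM in the sham, 11286 in the 7 dpi and 11854 in the 28 dpi vehicle library, and at 14361, 12623 and 11387 CPM under PLX5622. C1qb was at 8002, 9578 and 7890 CPM under vehicle and 11706, 11191 and 9623 under PLX5622. C1qc was at 7833, 7373 and 6901 CPM under vehicle and 8783, 8126 and 7929 under PLX5622. The lowest and the highest microglial level of each subunit thus differed by less than 1 on the log2 scale. The number of microglia was 674, 2154 and 3974 under vehicle and 29, 61 and 126 under PLX5622, so far fewer cells lay behind the PLX5622 values.

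Against sham, microglial C1qa was higher at 7 dpi by 0.21 (0.19 to 0.23) in log2 CPM and at 28 dpi by 0.28 (0.26 to 0.30). C1qb was at 0.26 (0.23 to 0.28) and -0.02 (-0.04 to 0.00), and C1qc at -0.09 (-0.11 to -0.06) and -0.18 (-0.21 to -0.16). By CPM these are small steps, and for C1qc at both times and C1qb at 28 dpi the sign depends on the scaling. The median log2 ratio of all genes tested in microglia was -0.60 at 7 dpi and -0.47 at 28 dpi by CPM, and 21.3% and 23.8% of genes were above 0. With TMM factors 50.2% and 50.1% of genes were above 0, and the ratios became 0.81 and 0.75 for C1qa, 0.86 and 0.45 for C1qb, and 0.51 and 0.28 for C1qc. Relative to the median gene all 3 subunits were thus higher at both times, while by CPM C1qc was lower at both and C1qb lower at 28 dpi. PLX5622 over vehicle gave C1qa a ratio of 0.56 (0.49 to 0.62) between the sham libraries, 0.16 (0.12 to 0.20) between those of 7 dpi and -0.06 (-0.10 to -0.02) between those of 28 dpi. Those of C1qb were 0.55, 0.22 and 0.29 and those of C1qc 0.17, 0.14 and 0.20, and here TMM factors moved no value by more than 0.05.

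In MDMs the level of C1q was lower than in microglia of the same library. C1qa was at 7266, 5914 and 8987 CPM in the sham, 7 dpi and 28 dpi vehicle libraries and at 3747 and 6334 CPM in the 7 and 28 dpi PLX5622 libraries. C1qb was at 6423, 5746 and 5871 CPM under vehicle and 4878 and 5687 under PLX5622, and C1qc at 6016, 4465 and 5532 and at 3361 and 5159. The sham PLX5622 library held 9 MDMs and was left out. The lowest value of each subunit was that of the 7 dpi PLX5622 library, whose 100 MDMs were also the deepest, with a median of 15945 UMIs per cell against 5777 at 7 dpi under vehicle.

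The PLX5622 over vehicle ratio of C1qa in MDMs was, at 7 dpi, -0.66 (-0.69 to -0.62) and, at 28 dpi, -0.50 (-0.54 to -0.47). For C1qb it was -0.24 (-0.27 to -0.20) and -0.05 (-0.08 to -0.01), and for C1qc -0.41 (-0.45 to -0.37) and -0.10 (-0.14 to -0.06). C1qa was thus the subunit with the largest difference between the diets at both times by CPM. The 28 dpi vehicle library had a low ratio of C1qb to C1qa in microglia too (0.67). The larger difference of C1qa at 28 dpi thus cannot be told apart from a property of that library. With each cell weighted alike the ratios of C1qa were -0.39 and -0.38. After each cell was thinned to 1000 UMIs, 85.9% (exact Clopper-Pearson 95% interval, 84.6 to 87.1) of MDMs at 7 dpi under vehicle held a C1qa UMI, and 72.7% (62.9 to 81.2) under PLX5622. At 28 dpi the shares were 98.8% (98.3 to 99.1) and 91.3% (85.6 to 95.3). In T or NK cells, which are not known to make C1q, they were 49.6% and 8.70% at 7 dpi, with median depths of 1510 and 3617 UMIs, and 51.5% and 4.73% at 28 dpi, with 1233 and 2507. The share in such cells thus also differed between the diets, and the part of what gave it in the MDM ratios was not tested. Against sham, C1qa in MDMs was at -0.30 at 7 dpi (-0.00 with TMM factors) and 0.31 at 28 dpi (0.58), C1qb at -0.16 and -0.13 (0.13 and 0.14), and C1qc at -0.43 and -0.12 (-0.14 and 0.15).

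**Figure D2:**
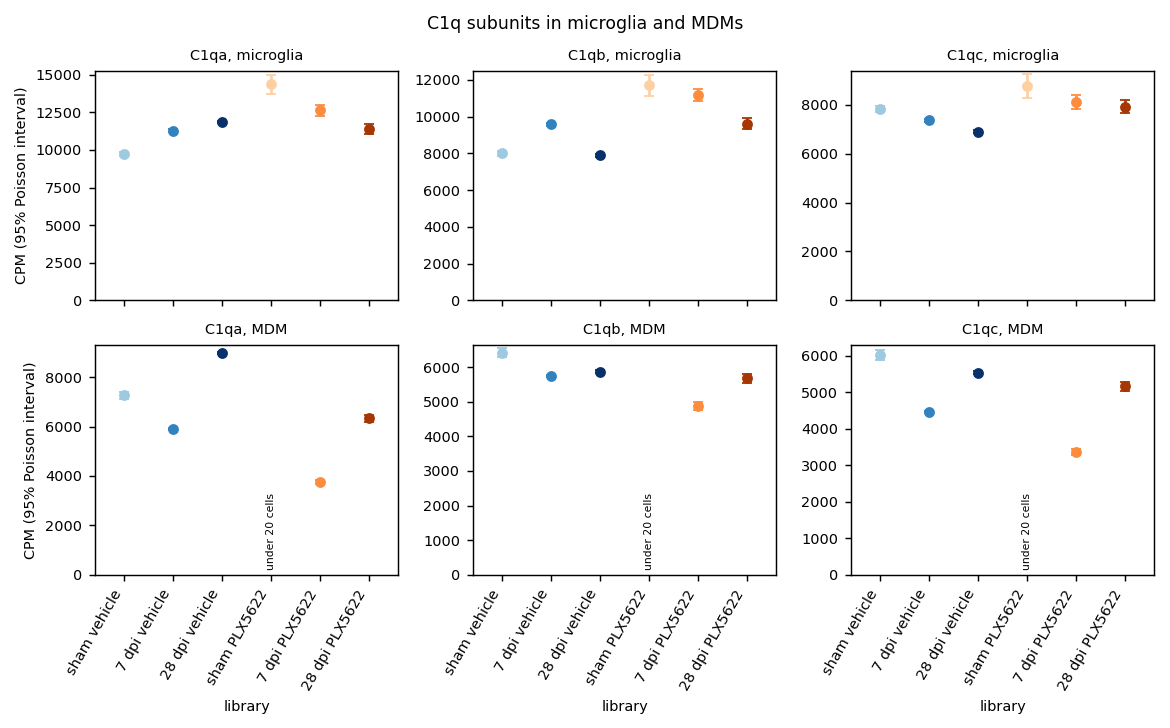
CPM of C1qa, C1qb and C1qc in microglia and MDMs of each library, with exact Poisson 95% intervals; the sham PLX5622 library is not shown for MDMs, as it held 9 of them. C1qa in MDMs was 3747 CPM at 7 dpi under PLX5622, against 5914 under vehicle.

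The subunits did not keep a single proportion to each other. The ratio of C1qb to C1qa UMIs in microglia was 0.82 (0.80 to 0.84), 0.85 (0.84 to 0.86) and 0.67 (0.66 to 0.67) in the vehicle libraries and 0.82 (0.76 to 0.87), 0.89 (0.85 to 0.92) and 0.85 (0.81 to 0.88) in the PLX5622 libraries. In MDMs it was 0.88, 0.97 and 0.65 under vehicle and 1.30 (1.26 to 1.34) and 0.90 (0.87 to 0.93) at 7 and 28 dpi under PLX5622. As UMIs of different genes need not be captured alike, such a ratio can be read between libraries only. The 28 dpi vehicle library stood lowest in both cell types. In that library the ratio was between 0.53 and 0.75 in all 14 clusters with at least 200 C1q UMIs, microglia and lymphocytes included, while in the 7 dpi vehicle library it was between 0.68 and 1.02 in 12 clusters. A shift that all clusters of a library share cannot be told apart from a property of that library.

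C1q UMIs were also counted in cells outside the myeloid lineage, and their level followed the library. In astrocytes C1qa was at 392 CPM in the sham, 4082 in the 7 dpi and 4663 in the 28 dpi vehicle library, and at 32.4, 362 and 198 CPM under PLX5622. In endothelial cells it was at 294, 1496 and 2580 CPM under vehicle and 23.8, 384 and 172 under PLX5622. T or NK cells gave 216, 3842 and 3937 CPM and 19.6, 298 and 270 CPM. In each of these unrelated clusters both injured vehicle libraries were far above the rest and the sham PLX5622 library was lowest, while the order of the other libraries differed between clusters.

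Summed over the subunits, the median of the clusters other than microglia, MDMs, the mixed mononuclear cluster and proliferating cells was 2.17%, 16.5% and 23.4% of the microglial level in the sham, 7 dpi and 28 dpi vehicle libraries, and 0.164%, 2.86% and 1.61% under PLX5622. Microglia and MDMs together were 47.9%, 69.6% and 74.0% of cells under vehicle and 7.72%, 31.9% and 30.5% under PLX5622. A list of 12 myeloid genes, with Tyrobp, Ctss and Csf1r among them and no complement gene, was also highest in those clusters in the injured vehicle libraries, though it was lower at 28 than at 7 dpi where C1q was higher. Its median summed level was 1046, 12562 and 8938 CPM under vehicle and 157, 1324 and 1015 under PLX5622. In the same clusters the median of C1q UMIs per myeloid list UMI was 0.69, 0.71 and 0.82 under vehicle and 0.69, 0.68 and 0.51 under PLX5622, beside 0.75, 0.97 and 0.91 and 1.03, 1.03 and 0.90 in microglia. The highest C1q level of these clusters was in the cluster named erythroid, 17530 and 18386 CPM at 7 and 28 dpi under vehicle. The myeloid list stood at 24707 and 20320 CPM there. Of that cluster's cells, 3.45% and 17.1% had fewer than 3 UMIs of the list in those libraries, against 85.8% in sham vehicle. Its name thus does not mark cells free of myeloid transcripts after injury. That cluster and neutrophils, which are myeloid, enter the medians above where they held at least 20 cells. Free RNA, droplets with more than 1 cell and true C1q transcripts in the cells of these clusters cannot be told apart here.

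In astrocytes the C1qa UMIs sat in part of the cells. The tenth of astrocytes with the most held 63.1% of them at 7 dpi and 59.6% at 28 dpi under vehicle, against 24.0% and 25.4% in microglia. Astrocytes with fewer than 3 UMIs of the myeloid list were 59.4% and 58.0% of the cluster in these libraries and 92.3% to 98.0% under PLX5622. In such astrocytes C1qa was at 29.7, 128 and 392 CPM under vehicle and 18.9, 51.1 and 48.1 CPM under PLX5622. Most of the astrocytic C1qa thus lay in cells with at least 3 UMIs of the myeloid list in every library but sham PLX5622. There the astrocytes with fewer held most of it.

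**Figure D3:**
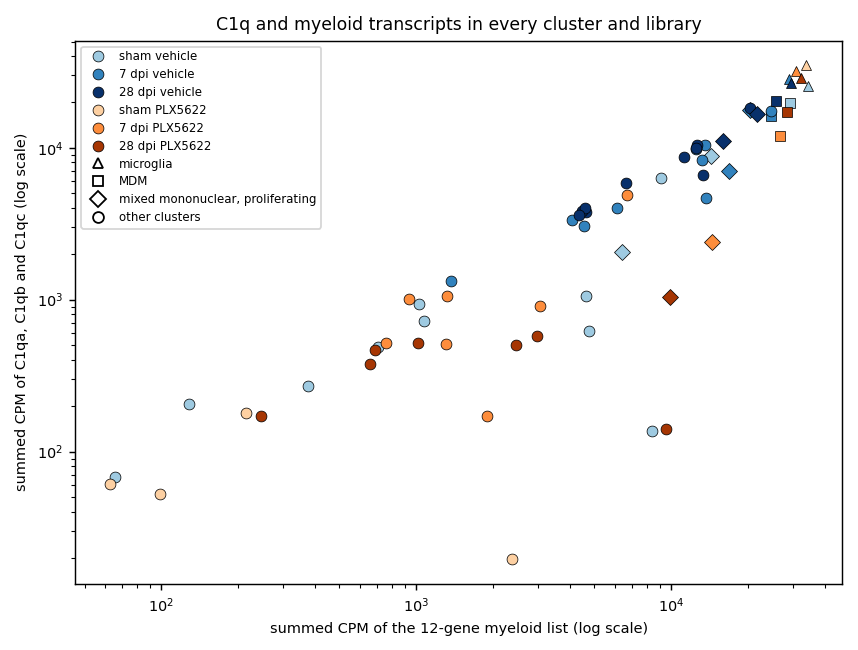
Summed CPM of C1qa, C1qb and C1qc (log axis) against the summed CPM of the 12-gene myeloid list (log axis), a point for each cluster and library of at least 20 cells; color gives the library and shape the cluster. The points of other clusters lie between 20 and 18386 CPM of C1q, with those of the injured vehicle libraries toward the upper right and those of the PLX5622 libraries lower; points far below the rest are clusters such as neutrophils, which make part of the myeloid list themselves.

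C4b, the mouse gene for the C4 protein, had its highest vehicle level in the mixed mononuclear cluster at 28 dpi and had 0 UMIs in that cluster under PLX5622. The cluster held it at 116 CPM (87.1 to 152) in the sham, 155 (139 to 173) in the 7 dpi and 502 (448 to 560) in the 28 dpi vehicle library. The counts behind these values were 53, 338 and 320 UMIs. The 28 dpi level was 2.11 (1.69 to 2.56) in log2 above that of sham. In the PLX5622 libraries 0 UMIs were counted in 14, 29 and 63 cells, and the upper limits of the intervals were 46.2, 14.03 and 11.8 CPM. With a floor of 3 counts per library the log2 ratio to vehicle was -3.76 at 7 dpi and -5.70 at 28 dpi, and the intervals allowed up to -3.46 and -5.40. With cells thinned to 1000 UMIs the floor gave -0.83 and -3.30. C4b has a near-identical neighbour in C4a, so reads of either may be uncertain.

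C4b was denser in the cells of that cluster that held border macrophage markers. Cells with at least 3 UMIs of these markers held C4b at 180, 394 and 1080 CPM in the sham, 7 dpi and 28 dpi vehicle libraries, and the other cells of the cluster at 0, 105 and 300 CPM. The counts were 53, 148 and 178 UMIs in the former and 0, 190 and 142 in the latter, so that at 7 dpi more of the UMIs lay in the other, more numerous cells. There were 39, 84 and 70 such cells under vehicle and 4, 6 and 5 under PLX5622, all of the latter with 0 UMIs of C4b. In the 28 dpi vehicle library, the 79 cells with a C4b UMI were set against the 205 without. The 10 genes with the highest fold were Ccl8, Vsig4, Lyve1, Ltbp1, Hgsnat, Prg4, Ednrb, Ecm1, Folr2 and Cd163. Several of them, but not all, are known from perivascular and meningeal macrophages. In the 7 dpi vehicle library Mcpt2, Cxcl13, Cma1, Ltbp1 and Cxcl9 led, with Vsig4, Marco and Lyve1 lower in the list. These genes were chosen after their values were seen. The makeup of this cluster and the diet cannot be told apart in these sums.

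Outside that cluster C4b was present under both diets. The oligodendrocyte and neuron marker cluster held it at 192, 412 and 371 CPM under vehicle and at 402 and 287 CPM at 7 and 28 dpi under PLX5622. The diet ratios there were -0.04 (-0.50 to 0.42) and -0.37 (-1.07 to 0.33), so the intervals held 0 and allowed either direction. With each cell weighted alike they were -0.99 and -0.96, and with thinned cells -1.56 and -0.94. In astrocytes C4b was at 10.3 CPM (4.43 to 20.2) in the sham, 141 (92.4 to 207) in the 7 dpi and 86.9 (60.9 to 120) in the 28 dpi vehicle library, and at 13.7 (5.89 to 26.9), 238 (154 to 351) and 627 (507 to 766) CPM under PLX5622. Astrocytes after injury thus held more C4b than those of sham under either diet, and the highest level was that of the 28 dpi PLX5622 library. At 7 dpi the diet ratio was 0.75 (-0.10 to 1.60), and at 28 dpi it was 2.85 (2.28 to 3.45). The value at 7 dpi changed sign, to -0.17 with each cell weighted alike and to -0.44 in astrocytes with fewer than 3 myeloid list UMIs. In microglia and MDMs C4b was low, at 2.33 to 26.1 CPM in sums of at least 20 cells.

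C3, the central component that every pathway cleaves, had its highest astrocytic level in the 28 dpi PLX5622 library. It was at 7.70 CPM (2.82 to 16.7) in the sham, 98.0 (58.1 to 155) in the 7 dpi and 41.1 (23.9 to 65.7) in the 28 dpi vehicle library. Under PLX5622 it was at 1.71 (0.0432 to 9.51), 28.6 (5.89 to 83.5) and 508 (401 to 635) CPM. The 28 dpi PLX5622 value was 3.63 (2.86 to 4.48) in log2 above that of vehicle at 28 dpi. Its 77 UMIs came from 18 of 107 astrocytes, with at most 14 in a single cell, and 14 of these 18 cells also held a C4b UMI. In the 7 dpi vehicle library, by contrast, the 18 UMIs came from 3 of 69 astrocytes, 16 of them from 1 cell.

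The 18 astrocytes with C3 at 28 dpi under PLX5622 were set against the 89 without. The 10 genes with the highest fold in them included Hspb1, Vim, S100a6, C4b, Cryab and Serpina3n, chosen after their values were seen. Several of the 10, but not all, are known from reactive astrocytes. Of the 77 C3 UMIs, 76 were in astrocytes with fewer than 3 UMIs of the myeloid list, as were 93 of the 95 C4b UMIs, and such cells were 97.2% of the astrocytes of that library.

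Neutrophils held C3 in every library with enough of them, at 333 (269 to 409), 224 (183 to 271) and 278 (227 to 338) CPM under vehicle and 269 (167 to 411) CPM at 28 dpi under PLX5622. The interval of the last value held the values of the other libraries. Proliferating cells had 400 CPM of C3 in the sham vehicle library, 49.7 at 7 dpi and 49.4 at 28 dpi. In sham, 16 of 29 proliferating cells held C3, and they were rich in S100a9, Ngp and Camp, which are known from neutrophils and their precursors. The fibroblast and pericyte marker cluster gave 186, 648 and 21.3 CPM under vehicle, of which the second value rests on 27 UMIs in 2 cells.

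In microglia C3 was at 7.63 (4.36 to 12.4), 34.2 (29.9 to 38.9) and 35.2 (31.2 to 39.6) CPM under vehicle, from 16, 231 and 279 UMIs. Both injured vehicle libraries were above the sham library, by 2.16 (1.43 to 3.00) and 2.20 (1.48 to 3.03) in log2. Under PLX5622 microglia had 0, 7 and 6 UMIs, or 0, 18.3 and 13.96 CPM. The value of 0 allows up to 26.0 CPM in 29 cells. MDMs held C3 at 19.0, 14.7 and 29.6 CPM under vehicle and 26.3 and 13.2 CPM at 7 and 28 dpi under PLX5622, with diet ratios of 0.84 (0.36 to 1.29) and -1.16 (-1.96 to -0.47). With each cell weighted alike the latter was -0.26, and it was no longer called.

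**Figure D4:**
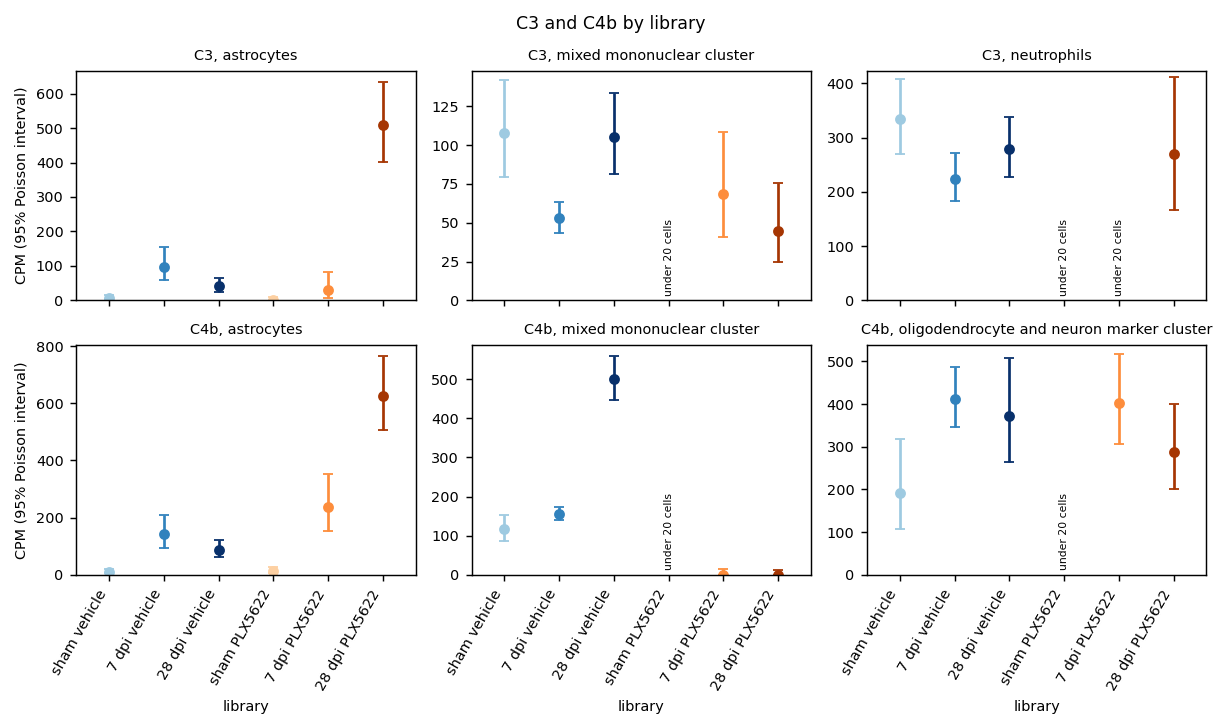
CPM of C3 (upper row) and C4b (lower row) with exact Poisson 95% intervals, by library, in astrocytes, the mixed mononuclear cluster and a further cluster (neutrophils for C3, the oligodendrocyte and neuron marker cluster for C4b). In astrocytes both genes are highest at 28 dpi under PLX5622 (508 and 627 CPM), whereas C4b in the mixed mononuclear cluster reaches 502 CPM at 28 dpi under vehicle and 0 under PLX5622.

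Cfb, which encodes factor B, was near the limit of detection. The mixed mononuclear cluster held it at 10.97 (3.56 to 25.6), 28.4 (21.8 to 36.5) and 25.1 (14.3 to 40.7) CPM under vehicle, from 5, 62 and 16 UMIs, and at 0 under PLX5622. The fibroblast and pericyte marker cluster had 47.6 CPM (23.7 to 85.1) in the sham vehicle library. The 28 dpi PLX5622 library had 0 UMIs of Cfb in all its cells of the count table. The interval allowed up to 11.8 CPM in the 63 mixed mononuclear cells of that library, under the 25.1 CPM of the 28 dpi vehicle library. It did not exclude the 10.97 CPM of the sham vehicle library. The library's own matrix held 2 UMIs of Cfb that the count table lacks. Their cluster was not traced, so this limit is itself uncertain. In MDMs the 7 dpi over sham ratio was -2.15 (-3.53 to -0.53) on 19 and 6 UMIs.

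C3ar1, the receptor for C3a, was a gene of microglia and MDMs, and in them its level by CPM differed little between libraries. In microglia it was at 247 (226 to 269), 341 (327 to 355) and 315 (303 to 328) CPM under vehicle and 219 (149 to 311), 305 (252 to 366) and 272 (225 to 326) CPM under PLX5622. In MDMs it was at 412, 438 and 366 CPM under vehicle and 403 and 451 CPM at 7 and 28 dpi under PLX5622. The microglial ratios over sham were, for 7 and 28 dpi, 0.47 (0.33 to 0.61) and 0.35 (0.22 to 0.49), or 1.07 and 0.82 with TMM factors. The diet ratios in microglia were -0.17, -0.16 and -0.21 in sham, at 7 dpi and at 28 dpi, all with intervals that held 0, and they were 0.24, 0.17 and 0.12 with cells thinned to 1000 UMIs. In neutrophils C3ar1 had 0 UMIs in the sham vehicle library, 118 and 93.7 CPM in the injured vehicle libraries and 0 at 28 dpi under PLX5622. C1qa in neutrophils was also highest in the injured vehicle libraries, with 61.0, 1763 and 2892 CPM under vehicle and 64.0 at 28 dpi under PLX5622.

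C5ar1, the receptor for C5a, had most of its UMIs in microglia and MDMs, like C3ar1. By CPM its direction over sham was the opposite in microglia, while in MDMs at 28 dpi both receptors were lower. Neutrophils held the highest levels of C5ar1, 423 (350 to 507), 237 (195 to 285) and 185 (143 to 235) CPM under vehicle and 397 (270 to 564) CPM at 28 dpi under PLX5622. Against sham the vehicle ratios were -0.84 (-1.22 to -0.45) and -1.20 (-1.65 to -0.75), and the diet ratio at 28 dpi was 1.10 (0.44 to 1.74). In the same libraries the neutrophil cluster held more C1q where it held less C5ar1, and the part of other cells' RNA in these ratios was not tested. In microglia C5ar1 was at 111 (96.9 to 126), 70.5 (64.3 to 77.1) and 59.9 (54.6 to 65.5) CPM under vehicle and 205 (137 to 294), 78.3 (52.8 to 112) and 79.1 (54.8 to 111) under PLX5622. The sham level was thus the highest under each diet. The microglial ratios over sham were -0.65 (-0.88 to -0.42) and -0.89 (-1.12 to -0.65), and -0.05 and -0.42 with TMM factors. In MDMs C5ar1 was at 108, 86.7 and 63.2 CPM under vehicle and 87.0 and 63.7 CPM at 7 and 28 dpi under PLX5622, with diet ratios of 0.01 (-0.24 to 0.25) and 0.01 (-0.33 to 0.34).

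**Figure D5:**
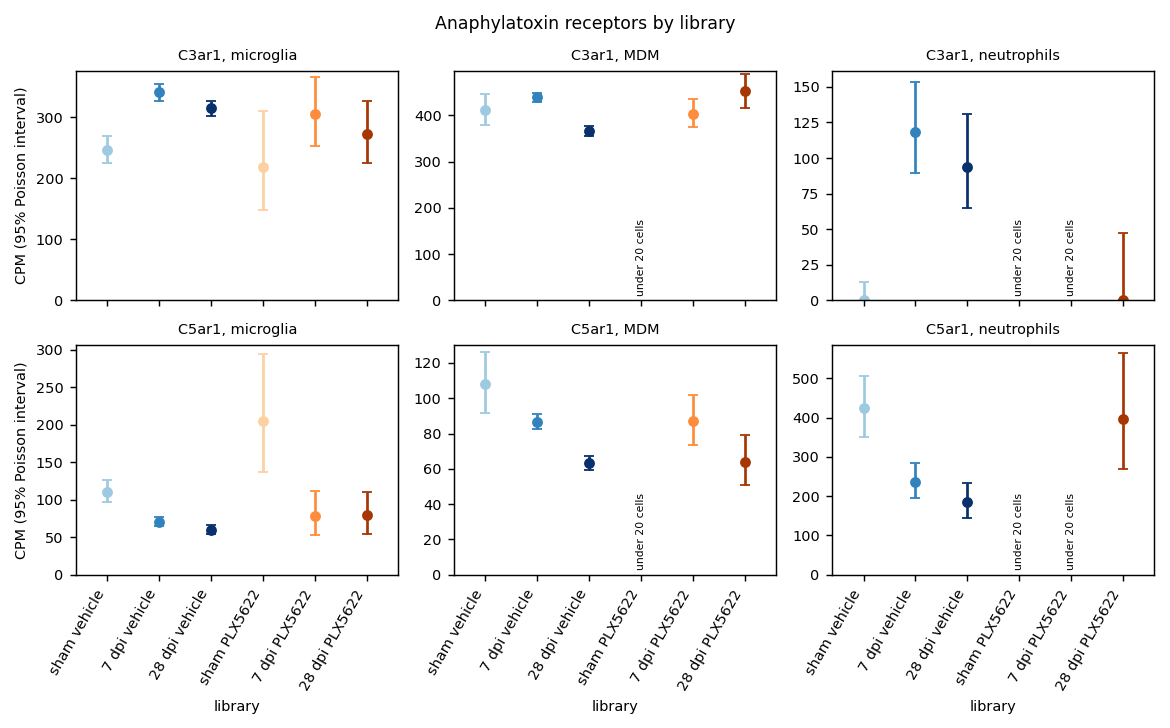
CPM of C3ar1 (upper row) and C5ar1 (lower row) with exact Poisson 95% intervals, by library, in microglia, MDMs and neutrophils; sums of under 20 cells are marked and not drawn. C5ar1 in neutrophils is 423, 237 and 185 CPM in the vehicle libraries and 397 CPM at 28 dpi under PLX5622, while C3ar1 in microglia lies between 219 and 341 CPM.

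Serping1, the inhibitor of the C1 proteases, was found in the connective tissue clusters and at under 1 CPM in microglia and MDMs of the vehicle libraries. In the fibroblast and pericyte marker cluster it was at 1773 (1606 to 1953), 744 (506 to 1056) and 733 (571 to 928) CPM under vehicle, from 410, 31 and 69 UMIs. The ratios over sham were -1.25 (-1.83 to -0.72) and -1.27 (-1.66 to -0.90). In leptomeningeal cells it was at 1085 (977 to 1202) CPM in sham and 359 (280 to 455) at 28 dpi under vehicle, a ratio of -1.59 (-1.99 to -1.22). With thinned cells the 28 dpi ratios were -0.85 in the former cluster and -0.99 in the latter, no longer called. By CPM the level was thus lower at 28 dpi in both clusters, while the 7 dpi vehicle library held 9 leptomeningeal cells and gave no ratio. C1qa in both was higher at 28 dpi by 3.22 (2.73 to 3.74) and 4.05 (3.52 to 4.62), as in unrelated clusters. The tenth of cells with the most held 85.3% and 84.7% of these C1qa UMIs. Median depths went from 3879 to 1078 and from 11409 to 2590 UMIs between sham and 28 dpi. The part of depth, of the clusters' makeup and of other cells' RNA was not tested. Under PLX5622 each sum held fewer than 20 cells, with 1032, 1088 and 424 CPM in the fibroblast and pericyte marker cluster and 468, 683 and 510 CPM in leptomeningeal cells.

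Counted over the list, few of the 9 genes had a called ratio in microglia, where Cfb and Serping1 had too few UMIs for any. At 7 dpi over sham 7 could be tested, of which 1 was called (C3, higher), where 31.4% of all 9797 genes tested were called. At 28 dpi it was again 1 of 7 (C3), against 21.2% of all genes. The median log2 ratio of the tested genes was 0.21 and -0.02, beside -0.60 and -0.47 over all genes. PLX5622 over vehicle gave 1 of 6 in sham (C4b, 1 UMI against 33, -1.16 with an interval of -6.50 to 1.42) against 17.3% of all genes, 1 of 7 at 7 dpi (C4b, 1.10, -0.01 to 2.05) against 14.6%, and 1 of 7 at 28 dpi (C3, -1.33, -2.79 to -0.19) against 14.1%. The medians were 0.36, 0.15 and -0.06, beside -0.02, 0.04 and -0.00 over all genes. These counts are near or under the share of all genes.

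In MDMs, where Serping1 could not be tested and Cfb at 7 dpi alone, 1 of 8 tested genes was called at 7 dpi over sham (Cfb, lower), against 20.5% of all genes, and 0 of 7 at 28 dpi, against 12.6%. The medians were -0.34 and -0.13, beside -0.30 and -0.27 over all genes, of which 32.5% and 29.1% were above 0 by CPM and 49.8% and 50.3% with TMM factors. PLX5622 over vehicle called 1 of 8 at 7 dpi (Cfb, 2.26, 0.86 to 3.52), against 8.99%, and 2 of 7 at 28 dpi (C3 and C4b, lower, the latter on 3 UMIs), against 9.99%. The medians were -0.06 and -0.10, beside 0.02 at both times over all genes.

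In the mixed mononuclear cluster C1q was lower under PLX5622, as it was in clusters outside the myeloid lineage. C1qa was at 3279, 2559 and 4943 CPM in the sham, 7 dpi and 28 dpi vehicle libraries and at 905 and 379 CPM at 7 and 28 dpi under PLX5622. In T or NK cells the summed C1q subunits were at 9817 and 8633 CPM at 7 and 28 dpi under vehicle. Under PLX5622 they were at 914 and 580 CPM. The part of such a library-wide difference, and of the cluster's makeup, in the calls below was not tested. At 7 dpi, 5 of 8 tested genes were called, all lower (the C1q subunits, C4b and Cfb), against 16.7% of all genes, and C5ar1 was higher by 0.96 (0.50 to 1.41). At 28 dpi all 7 tested genes were called and lower, against 20.1% of all genes. The medians were -1.41 and -2.96, beside -0.01 and -0.15 over all genes. In the vehicle libraries 3 of 8 genes were called at 7 dpi (Cfb higher, C3 and C5ar1 lower) against 17.0% of all genes, and 3 of 8 at 28 dpi (C4b and Cfb higher, C5ar1 lower) against 12.4%. The medians over sham were -0.32 and 0.17, beside -0.22 at both times over all genes.

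In astrocytes every tested gene was called over sham, higher in each case: 6 of 6 at 7 dpi, against 41.2% of all genes, and 7 of 7 at 28 dpi, against 29.8%. The medians were 3.63 and 3.28, beside -0.37 and -0.30 over all genes. The myeloid gene Tyrobp, an adaptor protein of myeloid cells, was at 118, 3129 and 2741 CPM in the same astrocyte sums. In astrocytes with fewer than 3 UMIs of the myeloid list, C3ar1 kept 1 of 36 UMIs at 7 dpi and 1 of 66 at 28 dpi. C5ar1 kept 2 of 16 there at 28 dpi. For C3 at 7 dpi, 16 of 18 UMIs came from 1 cell. These counts and those of the diet ratios below include C1q, whose level followed the library, so they are not a result about the members. PLX5622 over vehicle called 3 of 3 in sham, all lower, against 6.01% of all genes. At 7 dpi it called 5 of 6, all lower, against 35.0%, and at 28 dpi 6 of 6, against 36.0%, of which C3 and C4b were higher and the others lower. The medians were -3.87, -2.81 and -4.08, beside 0.03, 0.27 and 0.31 over all genes.

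A further 34 genes of the complement system were listed, and 25 of them were in the count table. In microglia 9 of them could be tested at 7 dpi over sham, with 3 called higher and 2 lower, where 31.4% of all genes were called, and 8 at 28 dpi, with 1 higher and 1 lower, where 21.2% were. In MDMs 12 and 10 could be tested, with 3 higher and 1 lower at 7 dpi (20.5% of all genes) and 1 higher and 2 lower at 28 dpi (12.6%). The diet ratios in microglia called 0 of 7 in sham (17.3% of all genes), 2 of 9 at 7 dpi (14.6%) and 3 of 8 at 28 dpi (14.1%). Those in MDMs called 2 of 12 at 7 dpi (8.99%) and 2 of 10 at 28 dpi (9.99%). With so few genes, 1 more or 1 fewer call moves these shares by several percentage points.

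Those that reached 50 CPM in any sum of at least 20 cells were 18 genes, and most of them are given here with their highest sum. Among the proteases that act beside C1q, C1ra reached 169 CPM and C1s1 240 CPM, both in the fibroblast and pericyte marker cluster. The regulators Cd55 (389 CPM) and Vtn (6345 CPM) were highest in the same cluster, Clu (4722 CPM) in ependymal cells, Cd59a (223 CPM) and Cr1l (159 CPM) in endothelial cells, and Csmd1 (65.7 CPM) in the oligodendrocyte and neuron marker cluster. Of the receptors, Itgam (828 CPM) and Itgb2 (589 CPM), the chains of complement receptor CR3, were highest in neutrophils, and Cr2 (162 CPM) in B cells. Itgax (242 CPM) was highest in MDMs, Vsig4 (132 CPM) in the mixed mononuclear cluster, C5ar2 (88.3 CPM) in microglia and Cd93 (642 CPM) in endothelial cells. Cfp, which encodes properdin, reached 502 CPM in the mixed mononuclear cluster, and Hc, the mouse gene for C5, 86.4 CPM in ependymal cells.

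C5ar2, the second receptor for C5a, followed C5ar1 in microglia, at 88.3 CPM in the sham and 25.6 and 29.9 CPM in the injured vehicle libraries. Itgax, a chain of complement receptor CR4, was at 15.7, 42.1 and 104 CPM in microglia of the vehicle libraries and at 25.6 CPM at 28 dpi under PLX5622.

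Over the 66 sums of at least 20 cells, the genes whose log2(CPM + 10) was most like that of each member were found among 9451 genes, with Pearson's r as a description, since sums of a library share its depth and its free RNA. C1qa, C1qb and C1qc were most like each other, with r of 0.99 for each pair. C3ar1 was most like Aif1 (0.95), a macrophage gene, and was at 0.93 with C1qa. C5ar1 was most like Alox5ap (0.92), Nfam1 (0.91) and Igsf6 (0.91). The nearest genes of Serping1 were Col5a2 (0.94), Efemp1 (0.94) and Mfap5 (0.92), all of the extracellular matrix. C4b and C3 had no neighbour as close: Gpt2 (0.76), Vcan (0.75) and Serpina3n (0.75) for C4b, and Pygl (0.70), G6pdx (0.65) and Ifitm6 (0.65) for C3. Cfb had fewer than 500 UMIs and was not compared.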

How the data were processed

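Single-cell RNA-seq of 6 pooled libraries was used. Per the labels, the authors aligned reads to GRCm38 (mm10) with Cell Ranger, then used Seurat to filter and cluster the cells. Values were deposited as counts of UMIs per gene and cell, with a cluster number for each cell. The table leaves out 254 barcodes with fewer than 200 genes, and 716 of its cells exceed 3000 genes, the maximum in the methods. No per-sample column was left unmapped. Bulk RNA-seq was not analysed here.

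Cluster numbers were named by fixed markers. UMIs were summed per cluster and library to CPM. The text names all 9 members, the other complement genes that reach 50 CPM, and the 3 genes most correlated with each member over sums of at least 20 cells. Genes that mark C4b or C3 cells, the split by border macrophage markers, and details of other named genes, were added after values were seen. A few genes are not reported here. The members and lists were chosen with earlier results of these data known. Where a library had 0 UMIs of a gene, 3 counts stood in as the floor. Shares of cells were taken after thinning to 1000 UMIs, with shallower cells left out, and their 95% intervals are Clopper-Pearson. No test was made, as no condition had more than 1 library.

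The alternatives were totals without 90 ribosomal protein genes, edgeR TMM factors, DESeq2 size factors, thinned cells, each cell weighted alike, cells with at least 500 genes, at least 100 UMIs, cells under 3 myeloid UMIs, and cells not called by Scrublet. Doublets were kept in the values given. Scrublet, set to 0.8% per 1000 barcodes, called 1256 cells, as many as the setting expects, so its shares do not measure a doublet rate. Scaling factors came from edgeR 4.0.16 and DESeq2 1.42.0 under R 4.3.3. Sums and intervals were made in Python 3.11.15 with scipy 1.17.1, pandas 2.3.3 and numpy 2.4.6, and Scrublet ran in scanpy 1.11.5. The ratios and their intervals were tested on simulated Poisson counts. These hold counting error only, with no spread between cells or libraries and no free RNA.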

Additional observations from a re-analysis of the deposited data

How the results depend on the processing

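No paired analysis was possible because each condition is 1 library. Ratios of MDMs between the sham libraries could not be formed, with 9 cells under PLX5622. The number of members above 0 in microglia at 28 dpi over sham was 3 of 7 and became 6 with TMM factors and 6 with DESeq2 size factors. In MDMs it went from 1 of 8 at 7 dpi over sham to 2 with either set of factors and to 0 with each cell weighted alike, and from 2 of 7 at 28 dpi to 5 with either set. For PLX5622 over vehicle it went from 3 of 7 to 5 with thinned cells in microglia at 28 dpi, from 4 to 2 with thinned cells in MDMs at 7 dpi, and from 2 to 1 in MDMs at 28 dpi with TMM factors, with DESeq2 factors, with cells of at least 500 genes and without the cells called by Scrublet. TMM and DESeq2 factors move all genes of a comparison alike; otherwise the cause was not tested. Called ratios that changed sign were C4b in microglia at 7 dpi, PLX5622 over vehicle, from 1.10 to -0.012 with each cell weighted alike; C1qb in endothelial cells for the same libraries, from -1.73 to 0.046 without the cells called by Scrublet; C5ar1 in proliferating cells at 7 dpi over sham, from 1.89 to -0.33 with thinned cells; and C3ar1 in the oligodendrocyte and neuron marker cluster at 7 dpi, PLX5622 over vehicle, from -3.93 to 0.55 with each cell weighted alike. Of 287 member ratios, 195 were called, and 11 of these fell under 1 with TMM factors, 17 with thinned cells and 15 with each cell weighted alike. The share of all genes was taken for microglia, MDMs, the mixed mononuclear cluster and astrocytes only, where 6.01% to 41.2% were called. The 195 include C1q in unrelated clusters, whose level followed the library, so this count is not a result about the members. The PLX5622 libraries hold 492 to 940 cells, so their intervals are wide, and pools of 3 to 4 mice give no measure of the spread between animals.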

Other observations

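Among the 254 barcodes that the authors left out, C1qa had 24 UMIs in the sham vehicle library, C1qb 11 and C1qc 11, against 33403, 28305 and 26917 in its cells. In the 28 dpi PLX5622 library, Cfb had 2 UMIs in the library's own matrix and 0 in the count table of all cells.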
